A study of Mus musculus with 12 samples.

Results

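Tmeff1 was followed here together with 5 genes that act as feedback regulators of transforming growth factor beta (TGF-beta) and bone morphogenetic protein (BMP) signalling: Ski, Skil, Tgif1, Pmepa1 and Bambi. The members were chosen by name, with every probe set that the platform annotation assigns to their symbols, which gave 11 probe sets of 45101 on the array and 6 genes of 18193. The study asked how TGF-beta signalling bears on the activation of hair follicle stem cells (HFSCs) at the second passage from rest (telogen) to growth (anagen) of the mouse hair cycle. RNA was measured on 12 Affymetrix arrays, each holding the RNA of sorted back skin cells of untreated female mice aged 72 to 74 days, of mixed C57BL/6 and CD1 strain. Cells came from mice labelled TßRII-Het or TßRII-cKO, after the TGF-beta type II receptor, here called Het and cKO. They were sorted with Rosa26-YFP, P-cadherin and CD34 into hair germ (HG), bulge, and total skin keratinocytes that carried Rosa26-YFP. The HG is the small cluster of stem cells next to the dermal papilla that starts growth first, and the bulge is the larger stem cell store above it.

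Each genotype was sampled in 2 sets. In set 1 the HG and bulge cells of both genotypes were labelled quiescent. In set 2 the Het cells were labelled activated and the cKO cells aberrantly quiescent. This makes 10 groups: 8 HG and bulge groups of 1 array each, and Het and cKO total keratinocytes with 2 arrays each, 1 from each set. All activated Het arrays were of set 2 and all quiescent Het arrays of set 1. Below, activation in Het cells therefore cannot be told apart from any other difference between the sets. The labels used here name neither the driver of the receptor deletion nor how many mice gave each RNA, nor whether 1 animal served several fractions. P-values below therefore measure only the spread between arrays. No HG or bulge group had a replicate array. Where sets or genotypes were fitted over HG and bulge, the spread came from comparing different fractions. It is how unevenly HG differed from bulge across the combinations of genotype and set. A true difference in how the fractions responded cannot be told from noise there. In a sorted fraction, fewer cells of a type and less RNA per cell cannot be told apart.

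TGF-beta ligands bind the type II receptor, which switches on a type I receptor that phosphorylates Smad2 and Smad3. BMP ligands use other receptors and Smad1, Smad5 and Smad8, and in the resting follicle BMP is known to hold the stem cells quiescent. Both pathways are damped at several levels. Ski and Skil (also called SnoN) are nuclear proteins that bind activated Smads and bring in corepressors. Tgif1 is a homeodomain protein that represses Smad target genes. Pmepa1 is a membrane protein that binds Smad2 and Smad3 and keeps them from the receptor. Bambi is a pseudoreceptor, built like a type I receptor without the kinase domain. Tmeff1 is a transmembrane protein with follistatin-like and epidermal growth factor-like domains, known as a TGF-beta target that dampens BMP signalling in hair follicle stem cells.

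RefSeq promoter windows (build GRCm38.p6) were at hand for Tmeff1, Ski and Tgif1, and not for Skil, Pmepa1 and Bambi. The stretches upstream of every annotated start are printed for Tmeff1, whose signal stood out on the activated hair germ array described below, and for Tgif1, whose signal did not. Capitals mark matches on either strand to short motifs tied to Smads (GGCGCC and CAGAC) or to Tgif proteins (TGTCA, here read as its reverse complement TGACA), and both sequences run 5′ to 3′ on the gene's own strand. The first lies at chr4:48584924-48585070 on the plus strand and the second at chr17:70853533-70853782 on the minus strand.
Tmeff1: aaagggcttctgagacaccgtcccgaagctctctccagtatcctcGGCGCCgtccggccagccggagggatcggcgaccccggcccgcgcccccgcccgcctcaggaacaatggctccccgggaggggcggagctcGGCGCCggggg
Tgif1: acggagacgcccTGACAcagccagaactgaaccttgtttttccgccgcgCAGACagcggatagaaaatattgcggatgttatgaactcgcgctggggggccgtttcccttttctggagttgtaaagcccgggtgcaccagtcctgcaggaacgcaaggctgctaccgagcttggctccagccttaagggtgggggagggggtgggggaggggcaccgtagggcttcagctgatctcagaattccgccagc
The Tmeff1 stretch of 147 bases held GGCGCC at 2 places and no CAGAC. It held neither the Tgif motif nor the Smad palindrome GTCTAGAC. The Tgif1 stretch of 250 bases held CAGAC once and TGTCA once. Tgif1 had 5 windows at different annotated starts, and those not printed held further matches to both motifs. GC content was 74.8% in the Tmeff1 stretch and 59.6% in the Tgif1 stretch. A 250-base stretch upstream of Ski held GGCGCC once and none of the other motifs. Of 32851 RefSeq promoter windows of 300 bases, GGCGCC was found in 11.9%, CAGAC in 49.6%, TGTCA in 45.4% and GTCTAGAC in 0.213%. A match is a run of letters and not a known binding site.

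Signal is given as log2 of the deposited intensity. Where a gene had several probe sets, the brightest on average was used (1426649_at for Tmeff1, 1426373_at for Ski, 1452214_at for Skil, 1422286_a_at for Tgif1, 1422706_at for Pmepa1 and 1423753_at for Bambi). Each of these exceeded the pooled median of all probe sets (log2 6.40) on all 12 arrays, so all 6 passed the filter on low values. Every array had the same trimmed mean of 500, and median signals lay between 64.1 and 109.0. Tgfbr2, the receptor gene that the genotypes are named for, read 10.35 to 12.39 on the 6 Het arrays and 11.31 to 12.14 on the 6 cKO arrays, which overlap. Its probe set cannot check the labels, since the position of the deletion relative to the probes is not given. The hair germ and bulge sorts matched their markers: 5 of 6 hair germ markers were higher and 7 of 9 bulge markers lower in HG than in bulge, among them Cdh3 and Cd34, whose proteins were used for sorting. The Het HG array of set 2 stood apart from the other HG arrays: the mean of 13 cell cycle genes was 12.41 there and between 8.80 and 11.35 on the other 11 arrays, while the mean of 14 dissociation stress genes was 10.40, the lowest of all.

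**Figure D1:**
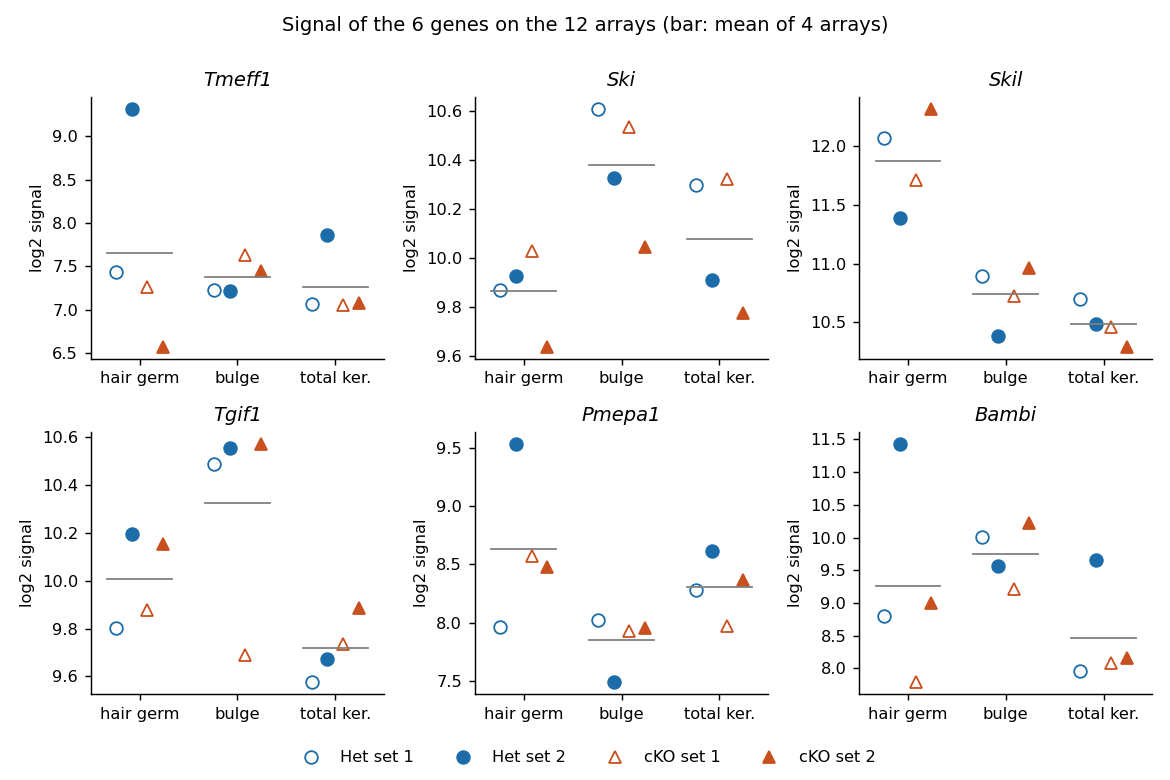
Log2 signal (y axis) of each gene on the 12 arrays by sorted fraction (x axis); a point is 1 array, colour and fill give genotype and set, and bars are means of 4 arrays. All 4 hair germ arrays of Skil sit above its other 8 arrays, and 1 hair germ array, Het of set 2, stands above all others for Tmeff1, Pmepa1 and Bambi.

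Skil was the only one of the 6 that passed the test as higher in hair germ than in both other fractions. Its signal was 12.07 and 11.71 on the Het and cKO HG arrays of set 1 and 11.39 and 12.32 on those of set 2. In the bulge it was 10.89 and 10.72 in set 1 and 10.38 and 10.96 in set 2, and in total keratinocytes it was 10.70, 10.46, 10.48 and 10.29 in the same order. The HG arrays did not overlap the 8 others, where 21.3% of genes separated HG from bulge and 15.1% separated HG from total keratinocytes in either direction. HG exceeded bulge by 1.13 (SE 0.15, confidence interval 0.80 to 1.47 at 95%), a 2.19-fold difference with an adjusted p of 0.0010 in limma, and was higher in 4 of 4 conditions. HG exceeded total keratinocytes by 1.39 (SE 0.17, adjusted p = 0.0011), also in 4 of 4. Bulge and total keratinocytes differed by 0.26 (adjusted p = 0.30). Among all genes, 19.2% were called between HG and bulge and 10.8% between HG and total keratinocytes, 8.45% and 5.10% being higher in HG, so 1 member of 6 in each is near the background. The calls held without any 1 array of the fit, but not for the mean of both Skil probe sets, where the differences were 0.44 (adjusted p = 0.16) and 0.92 (adjusted p = 0.068).

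Melanocyte markers moved with Skil. Of 8 melanocyte markers, 7 were higher in HG than in bulge and 1, Mitf, lower. Between bulge and total keratinocytes only Mitf lay above 0 (2.56), and the median of the 8 was -0.35. Their summed signal was 12094.3 to 21240.2 in HG, 7202.3 to 9458.6 in bulge and 1734.5 to 4448.3 in total keratinocytes, with none of the 8 at 0. The higher sum in bulge than in total keratinocytes thus does not describe the other markers. Within HG the order of the arrays was the same for both measures: the sum was 21240.2 on cKO of set 2, 20880.0 on Het of set 1, 17819.5 on cKO of set 1 and 12094.3 on Het of set 2. The part of melanocyte RNA in the Skil difference was not tested. The second Skil probe set, 1422054_a_at, was above the pooled median on 1 array only and was not tested by itself.

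Ski, the close relative of Skil, ran the other way between hair germ and bulge. Its HG signal was 9.87 and 10.03 on the Het and cKO arrays of set 1 and 9.93 and 9.64 on those of set 2. The corresponding bulge values were 10.61, 10.54, 10.33 and 10.05. All 4 HG arrays lay below all 4 bulge arrays; the 2 fractions did not overlap for 21.3% of genes. The difference of -0.51 (SE 0.16) did not pass the test (adjusted p = 0.0511 in limma). It did not pass in 7 of 10 other settings or in 6 of 8 fits with 1 array left out. It passed, for example, with -0.56 and an adjusted p of 0.037 after quantile normalization, and on the second probe set, 1429192_at, at -0.58 (adjusted p = 0.04996). Total keratinocytes read 10.30, 10.32, 9.91 and 9.78, between the fractions and overlapping both, with HG minus total keratinocytes at -0.21 and bulge minus total keratinocytes at 0.30, neither past the test. All 10 fibroblast markers were also lower in HG than in bulge (summed signal 16268.5 to 29551.7 against 130678.7 to 292224.3), and their part in the Ski values was not tested.

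Tgif1 was higher in bulge than in total keratinocytes. Bulge arrays read 10.49 and 9.69 in Het and cKO of set 1 and 10.55 and 10.57 in set 2. Total keratinocytes read 9.58, 9.74, 9.67 and 9.89, and cKO bulge of set 1 was the 1 bulge array among them. The difference was 0.61 (SE 0.18, adjusted p = 0.027 in limma), in 3 of 4 conditions, where 24.3% of all genes were called and 13.8% were called higher in bulge. HG arrays read 9.80, 9.88, 10.19 and 10.15 and differed from bulge by -0.32 (adjusted p = 0.26). The call did not hold without the block for condition (adjusted p = 0.059), nor without the Het bulge or Het total keratinocyte array of set 1, or without any 1 of the Het or cKO bulge or total keratinocyte arrays of set 2, where it was 0.52 to 0.60, or 0.50 without Het bulge of set 1, with adjusted p-values of 0.062 to 0.11.

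Bambi was also called higher in bulge than in total keratinocytes, with a wider spread. Its bulge signal was 10.01 and 9.21 in Het and cKO of set 1 and 9.56 and 10.21 in set 2, against 7.96, 8.08, 9.66 and 8.15 in total keratinocytes, where Het of set 2 overlapped the bulge. The difference was 1.28 (SE 0.44, adjusted p = 0.0495 in limma), in 3 of 4 conditions. The call sat at the threshold: it did not hold under any of the 9 other settings, with adjusted p-values up to 0.13, and leaving out 1 array at a time it held only without cKO HG of set 1, Het HG of set 2 or Het bulge of set 2 (values of 1.03 to 1.91 over the 12). Fibroblast markers moved the same way, with 10 of 10 higher in bulge than in total keratinocytes and summed signals of 130678.7 to 292224.3 against 19125.5 to 48528.3. Of 5 endothelial markers tested 4 were higher in bulge (sums of 628.2 to 942.8 against 185.0 to 447.9 over 6 genes). Their part in the Bambi and Tgif1 differences was not tested.

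Between hair germ and bulge, Bambi turned on 1 array. Its HG signal was 8.81 and 7.79 in Het and cKO of set 1, 11.43 in Het of set 2 and 9.0 in cKO of set 2. In 3 conditions HG minus bulge was between -1.42 and -1.20, and in the activated Het condition it was 1.87, so that the fitted difference was -0.49 (SE 0.48, adjusted p = 0.52). Leaving out the activated Het HG array or its bulge counterpart is in effect the same fit, since either removes that condition from the comparison. The difference was then -1.28, from the 3 conditions of the same sign.

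Pmepa1 and Tmeff1 did not separate the fractions. Pmepa1 read 7.97 and 8.57 in the Het and cKO HG of set 1 and 9.53 and 8.47 in those of set 2, against 8.03, 7.93, 7.49 and 7.96 in bulge. HG minus bulge was 0.78 (SE 0.33, adjusted p = 0.14), higher in 3 of 4 conditions. In total keratinocytes it was 8.28, 7.97, 8.61 and 8.36. Tmeff1 averaged 7.65 ± 1.17 in HG, 7.38 ± 0.19 in bulge and 7.27 ± 0.40 in total keratinocytes (SD, n = 4 each), and none of its 3 differences, 0.11 to 0.38, passed the test. The SD in HG was the second largest of the 6 genes, after that of Bambi (1.54).

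**Figure D2:**
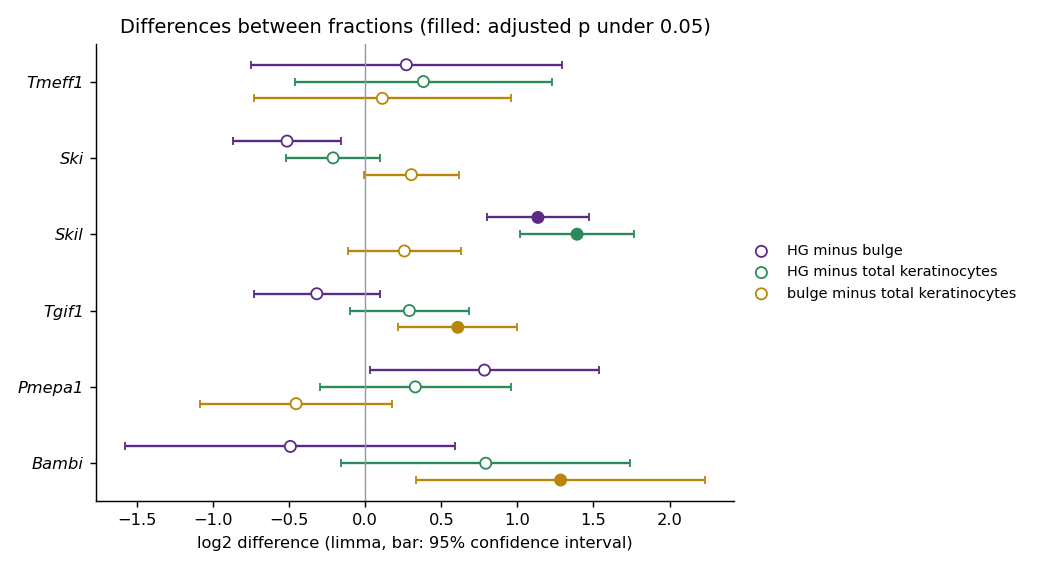
Log2 difference (x axis) between fractions for each gene, from limma; bars are confidence intervals at 95%, and filled points have an adjusted p under 0.05. Skil is filled for hair germ against both other fractions, at 1.13 and 1.39, and Tgif1 and Bambi for bulge against total keratinocytes, at 0.61 and 1.28.

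Tmeff1 was highest in the activated hair germ. Its signal on the Het HG array of set 2 was 9.32, against 7.44, 7.27 and 6.58 on Het of set 1, cKO of set 1 and cKO of set 2. The 8 bulge and total keratinocyte arrays read 7.06 to 7.86, and the bulge array of the same activated Het condition was among them at 7.22. The activated HG was thus 3.68-fold above the highest other HG array and 1.46 above the next of all 12 arrays, Het total keratinocytes of set 2. With 1 array there is no replicate check of this difference. The second Tmeff1 probe set, 1441890_x_at, was dimmer and exceeded the pooled median on 2 arrays, and its highest value was also on this array (6.69), 0.06 above Het bulge of set 1 at 6.63.

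Bambi shared this array. At 11.43 it was 5.39-fold above the highest other HG array and 1.21 above the next of the 12, cKO bulge of set 2 at 10.21. Pmepa1 was 1.95-fold above the highest other HG array on its main probe set (9.53) and 2.30-fold on 1422705_at, where it read 8.27 against 6.69 to 7.07. The third Pmepa1 probe set, 1452295_at, was above the pooled median on this array only (6.52). Ski at 9.93, Tgif1 at 10.19 and Skil at 11.39 did not stand out there, and Skil was the lowest of its 4 HG values. Of 12738 genes, 4.37% were 2-fold or more above every other HG array on this array and 19.0% had their highest of 12 values there. Of the members these were 2 of 6 (Tmeff1 and Bambi) and 3 of 6 (with Pmepa1). Tmeff1 and Bambi were also 2-fold or more above each of the other 11 arrays, as were 1.81% of genes.

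Het total keratinocytes of set 2 showed the same 3 genes on a smaller scale. Tmeff1 read 7.86 there against 7.06 to 7.08 on the other 3 total keratinocyte arrays, Bambi 9.66 against 7.96 to 8.15 and Pmepa1 8.61 against 7.97 to 8.36. Bambi was 1.71 above Het of set 1 there, 2-fold or more as in 4.02% of genes. Het of set 2 was thus the highest of 4 both in HG and in total keratinocytes for these 3 members, as for 16.1% of genes. Hair germ markers summed to 6501.2 on that total keratinocyte array, against 2264.5 to 2975.2 on the other 3. Its cell cycle mean was 11.35 against 10.10 to 10.21, while its keratinocyte marker sum (97194.2) lay among theirs. The part of these shifts in the 3 genes was not tested. In the bulge the 3 genes read 7.22, 9.56 and 7.49 on the activated Het array. For Pmepa1 this was the lowest of the 4 bulge arrays, and for Tmeff1 it was nearly level with Het bulge of set 1 (7.23).

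**Figure D3:**
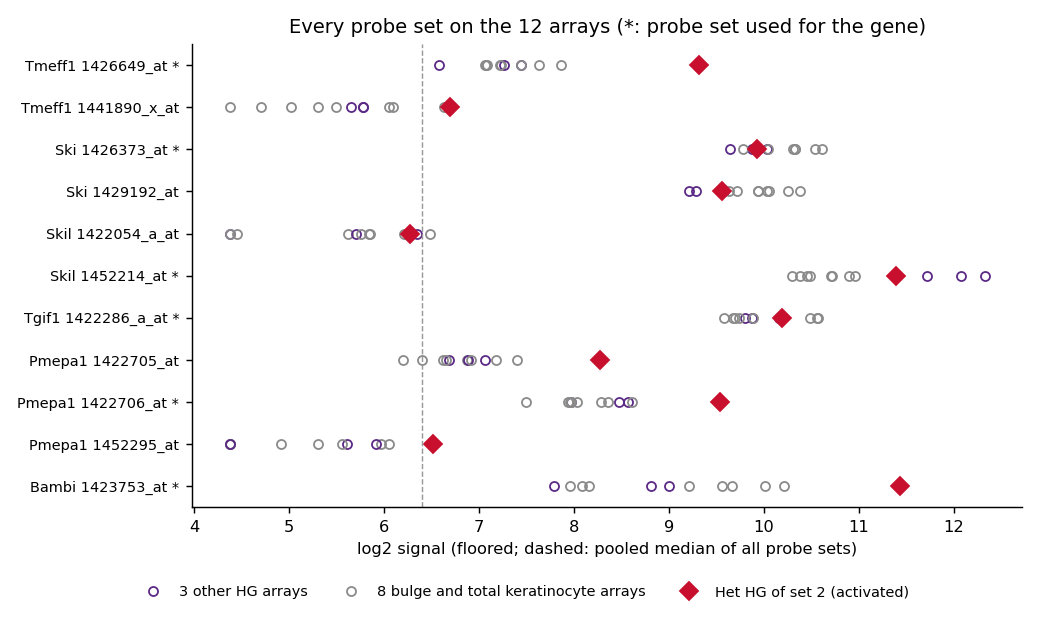
Log2 signal (x axis, values below the floor set to it) of all 11 probe sets on the 12 arrays; a point is 1 array, the diamond is the Het hair germ of set 2 and the dashed line the pooled median of 6.40. The diamond is the rightmost point for both Tmeff1 probe sets, all 3 Pmepa1 probe sets and Bambi, and lies among the other points for Ski and Tgif1.

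Other features of that array accompany these values. All 13 cell cycle genes measured were at their highest of 12 arrays there, 11 of them 2-fold or more above the other HG arrays. The summed signal of 4 keratinocyte markers was 52570.7, the lowest of all arrays (up to 133486.4), with Krt5, Krt14 and Itga6 2-fold or more below the other HG arrays. The melanocyte sum was also the lowest of the HG arrays, and none of its 8 genes was at 0. The summed signal of 6 hair germ markers was 18268.6, against 5302.8 to 7335.6 on the other HG arrays, with Shh 5.73-fold and Lef1 4.77-fold above the highest of them. The rise was not shared by all 6. Only 3 (Shh, Lef1 and Msx2) were 2-fold or more above the other HG arrays, and Grp and Lgr5 read lower than on Het HG of set 1. The summed signal of 6 epidermal differentiation markers was 14561.1, the lowest of all arrays, and 5 of 7 immune markers were 2-fold or more below the other HG arrays. Of 10 fibroblast markers 3 were 2-fold or more below and 1, Dcn, above (14.56 against 12.48 to 12.81). Their part in the Tmeff1, Bambi and Pmepa1 values was not tested.

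In the fit of all HG and bulge cells, activated against quiescent Het cells, no member passed the test, and 1, Skil, had an unadjusted p under 0.05 (0.019). Bambi was 1.09 higher in set 2 (adjusted p = 0.45 in limma), Tmeff1 0.94 higher (SE 0.64, adjusted p = 0.49) and Pmepa1 0.52 higher. Skil differed by -0.60 (SE 0.21, adjusted p = 0.21), with -0.68 in HG and -0.51 in bulge. Only 0.700% of all genes were called, 88 in number, with 2115 at an unadjusted p under 0.05. The fit averages HG and bulge, which moved apart for 3 members: from set 1 to set 2 Tmeff1 differed by 1.88 in Het HG and -0.01 in Het bulge, Bambi by 2.62 and -0.45, and Pmepa1 by 1.57 and -0.54. In HG all 3 were thus 2-fold or more higher in set 2, as were 7.99% of genes. When the Het bulge array of set 2 was left out, 1 HG array alone stood for the activated cells. The differences were then 2.15 for Tmeff1, 2.66 for Bambi and 1.35 for Pmepa1. That array is the one on which these 3 genes were highest, so this fit is no separate check of them. Without the Het HG array of set 2 the 3 differences turned to -0.28, -0.49 and -0.32.

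In cKO cells set 2 exceeded set 1 for Bambi in both fractions, by 1.20 in HG (2-fold or more, as in 3.26% of genes) and 1.01 in bulge (2.85% of genes), with a fitted difference of 1.11 that did not pass the test (adjusted p = 0.81). It passed when either Het array of set 2 was left out. Both are in effect 1 fit, since the Het array that remains adds nothing to the estimate of spread. Tmeff1 differed by -0.69 in HG and -0.19 in bulge, the other way from Het HG. Skil differed by 0.61 and 0.24 in cKO HG and bulge and by -0.68 and -0.51 in Het HG and bulge, so both fractions had opposite signs in the 2 genotypes, as for 12.5% of genes. The interaction for Skil was 1.03 (SE 0.30, unadjusted p = 0.0072, adjusted p = 0.65) and turned to -0.36 with the mean of both Skil probe sets; that for Tmeff1 was -1.37 (SE 0.91, adjusted p = 0.76). No gene of 12580 was called by limma for either the cKO sets or the interaction (0% of genes), with 780 and 918 at an unadjusted p under 0.05.

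Between genotypes Bambi showed the largest average difference of the 6. Over all 12 arrays cKO minus Het was -0.83 (SE 0.32, unadjusted p = 0.025, adjusted p = 0.56 in limma), lower in cKO in 4 of 6 pairs of arrays. Tmeff1 followed at -0.51 (SE 0.36, adjusted p = 0.69), and Ski, Skil, Tgif1 and Pmepa1 lay between -0.11 and 0.09. No gene was called by limma in this comparison (0% of genes, with 1098 at an unadjusted p under 0.05).

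The size of these differences depended on fraction and set. In HG of set 2 cKO minus Het was -2.74 for Tmeff1, a 6.69-fold difference, and -2.43 for Bambi, a 5.39-fold difference. For Pmepa1 it was -1.06. These 3 members were thus 2-fold or more lower in cKO, as were 7.58% of genes in that pair of arrays. In HG of set 1 it was -0.17 for Tmeff1, 0.60 for Pmepa1 and -1.01 for Bambi, which was 2-fold or more lower in cKO, as were 2.94% of genes. In the bulge Tmeff1 differed by 0.40 in set 1 and 0.22 in set 2, and Bambi by -0.80 and 0.65. The second, dimmer Tmeff1 probe set gave 0.13 and -0.92 in HG and -0.58 and -1.39 in bulge of set 1 and set 2. In total keratinocytes of set 2 Bambi differed by -1.51 and Tmeff1 by -0.78, and in set 1 they differed by 0.13 and -0.01. Skil went from -0.36 in HG of set 1 to 0.93 in HG of set 2.

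**Figure D4:**
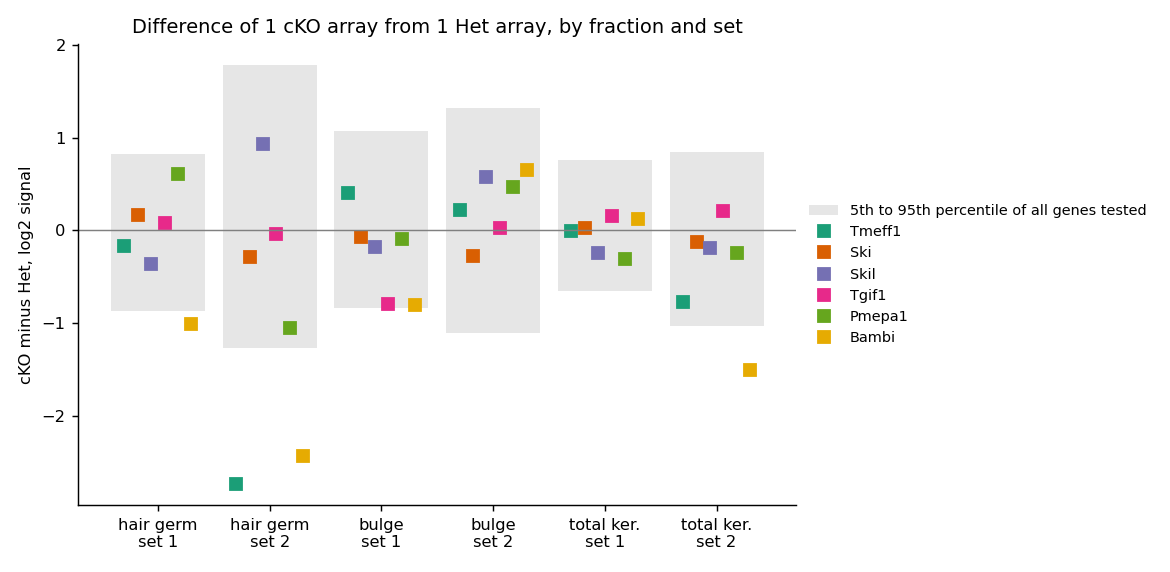
Log2 signal of the cKO array minus that of the Het array (y axis) in each fraction and set (x axis); each square is 1 gene, 1 array against 1, and grey boxes hold the 5th to 95th percentile of all genes tested. Tmeff1 at -2.74 and Bambi at -2.43 lie below the box in hair germ of set 2, which reaches from -1.27 to 1.78. Bambi also lies below the boxes of hair germ of set 1 and total keratinocytes of set 2, whose lower ends are -0.88 and -1.03.

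Fitted within sets over HG and bulge, no member passed the test, with 0 of 6 in set 1 and 1 of 6 (Skil) in set 2 at an unadjusted p under 0.05. In set 1, where both genotypes were labelled quiescent, Bambi was -0.91, Tgif1 -0.36, Skil -0.27, Pmepa1 0.26, Tmeff1 0.11 and Ski 0.04 in cKO relative to Het, each with an adjusted p of 1.0, and no gene was called by limma (0% of genes, with 264 at an unadjusted p under 0.05). In set 2, activated Het against aberrantly quiescent cKO, Tmeff1 was -1.26 (SE 0.64, adjusted p = 0.34), Bambi -0.89 (adjusted p = 0.52), Skil 0.76 (SE 0.21, unadjusted p = 0.0057, adjusted p = 0.14), Pmepa1 -0.30, Ski -0.29 and Tgif1 -0.01. There 0.262% of genes were called, 33 in all and 32 of them higher in cKO. When Het bulge of set 2 was left out, 1 HG array alone stood for the activated Het cells. Tmeff1 was then -2.48, Bambi -2.46 and Skil 0.84. That array is the one on which Tmeff1 and Bambi were highest, so this fit is no separate check of them. Without the Het HG array of set 2 Bambi turned to 0.68.

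The members did not share 1 pattern over the arrays. Tmeff1 and Bambi had a Pearson r of 0.72 over the 12 arrays, and 0.39 without the Het HG array of set 2. Tmeff1 and Pmepa1 had 0.66 and then -0.08. Tgif1 and Bambi had 0.60 and then 0.68. The genes most like Tmeff1 of the 12738 searched were Tyw3, Armt1, Armc1 and Wipi1, with r from 0.92 to 0.91, which fell to between 0.79 and 0.54 without that array. Those most like Bambi were Pgm3, Mtx2, Lhfp and Them4 (0.96 to 0.93), and those most like Pmepa1 were Hspa9, Ddx21, Mpp6 and Tars (0.95 to 0.93). Skil was most like Trib2 (0.97), Flrt3, Ptgds and Asic1 (0.94), all nearly as high without that array. Ski was most like Slit3, Dusp18, Smarcc2 and Arhgef12 (0.93 to 0.91), and Tgif1 like Armcx5, Klhl2, Nicn1 and Me3 (0.89 to 0.88). These values describe 12 arrays of 3 fractions, which share fraction, set and genotype.

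Of 18 further feedback and inhibitor genes tested, 2 were called between HG and bulge: Tgif2, the paralog of Tgif1, was 1.32 higher in HG (adjusted p = 0.012) and Tmeff2, the paralog of Tmeff1, was lower, at -1.37 (adjusted p = 0.035). Between HG and total keratinocytes 3 were called: Smad6, an inhibitory Smad of BMP signalling, at 1.14, the ubiquitin ligase Nedd4 at 0.73, and the TGF-beta co-receptor Cd109 at -0.89. Bulge exceeded total keratinocytes for 5: Smad6 (2.09), Tmeff2 (1.82), the TGF-beta binding protein Vasn (0.88), and the ubiquitin ligases Wwp1 (0.75) and Nedd4 (0.56). These are 11.1%, 16.7% and 27.8% of the list, beside 19.2%, 10.8% and 24.3% of all genes, and its medians were -0.20, 0.20 and 0.08, beside -0.02, 0.04 and 0.05 for all genes.

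On the activated Het HG array 4 of these 18 were 2-fold or more above every other HG array and 1 below, beside 4.37% and 10.6% of all genes. Smad6 read 9.62 against 6.73 to 7.60, Tgif2 9.19 against 7.91 to 8.09, Vasn 10.36 against 8.70 to 9.30 and Smad7, the inhibitory Smad induced by TGF-beta, 9.41 against 8.02 to 8.37. Cd109 was 3.42-fold below the lowest other HG array. None of the 18 was called by limma for genotype, set or their interaction, where 1 to 7 of them had an unadjusted p under 0.05, most (7) for genotype in set 2. The largest average difference between genotypes was that of Smad6, -1.0 (adjusted p = 0.35), lower in cKO in 6 of 6 pairs, as for 2.13% of genes, followed by Vasn at -0.63 (adjusted p = 0.50), also in 6 of 6.

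Of the proteins that Ski, Skil and Tgif1 recruit or act with, 8 of 12 listed were tested. The corepressor subunit Sap30 (1.01) and the deacetylase Hdac2 (0.63) were higher in HG than in bulge, 2 of 8 beside 19.2% of all genes called. The corepressor Ctbp2 was higher in HG than in total keratinocytes (0.63), 1 of 8 beside 10.8%. The kinase Hipk2 was lower in bulge than in total keratinocytes (-1.13), 1 of 8 beside 24.3%. At these shares the counts are near the background. On the activated Het HG array Sap30 was 2.53-fold and Ctbp2 2.06-fold above the highest other HG array. These were 2 of the 8, where 4.37% of all genes were 2-fold or more above every other HG array.

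Of 14 listed genes known to respond to TGF-beta, 0 were 2-fold or more above every other HG array on the activated array, where 4.37% of all genes were. At that share 0 of 14 is near the background. The list leaves out Tmeff1 and Smad7, described above as TGF-beta targets, which were 3.68-fold and 2.05-fold above. There 3 were 2-fold or more below, as were 10.6% of all genes: Tgfbi by 5.47-fold, Hmga2 by 3.35-fold and Ccn1 by 2.56-fold. Between HG and bulge, where 19.2% of all genes were called, 4 were lower in HG (Ccn2 -3.12, Ccn1 -2.04, Tgfb1i1 -1.97 and Tgfbi -1.60) and Thbs1 was higher (0.97). Fibroblast markers moved with the first 4, with 10 of 10 lower in HG, and their part was not tested. Of the ligands, receptors and Smads of TGF-beta, the co-receptor gene Tgfbr3 was the 1 of 14 called between sets or genotypes: it fell by 1.84 from set 1 to set 2 in Het cells (adjusted p = 0.017) and was 1.81 higher in cKO than Het in set 2 (adjusted p = 0.029). Neither call held without a trend in eBayes, where 0 genes were called. The first also ended without either Het array of set 1, and the second without a filter, with the mean of probe sets, or without any 1 of the 4 cKO arrays.

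BMP response genes, which Bambi and Tmeff1 are known to damp, were lower in hair germ than in bulge for Id1 (-1.31), Id2 (-2.76), Id3 (-0.82), Id4 and Hey1 (-1.99), and higher for Msx2 (2.24) and Gata3, 7 of 9 tested, beside 19.2% of all genes. On the activated Het HG array Msx1 was 13.7-fold, Msx2 5.97-fold and Smad6 4.07-fold above the highest other HG array. Id1, Id2 and Id3 read 12.01, 12.05 and 12.74 there, against 10.59 to 11.60, 10.91 to 11.36 and 10.96 to 12.16 on the other HG arrays. Tmeff1, Bambi and the 3 Id genes thus all read highest of the 4 HG arrays on it. This is common on that array: 19.0% of all genes had their highest of 12 values there. The share of genes highest among the 4 HG arrays alone is not given here. The labels give no protein or phosphorylated Smad measurement, so signalling itself was not measured in these data.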

How the data were processed

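The authors deposited 1 table of intensity values for the 12 arrays, computed with MAS5 per the submitters' processing notes; its version, background step and scaling target are not given in the sources used here. Each array's mean, trimmed by 2% at each end, is 500. Values below the pooled 25th percentile (20.7) were set to it, and log2 was taken. The array has 45101 probe sets, of which 64 are controls and were dropped; 34945 of the others had 1 gene symbol, 932 several and 9160 none in the platform annotation, and 34741 matched RefSeq by gene ID. The brightest probe set, by mean log2 signal, stood for a gene, which was tested if 2 or more arrays in a fit were above the pooled median (84.7).

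Differences were tested over all genes with limma 3.58.1 in R 4.3.3 (lmFit, eBayes with trend, two-sided, Benjamini-Hochberg, threshold 0.05). Fractions were compared within the 4 combinations of genotype and set, taken as a block, genotypes over 12 arrays within the 6 combinations of fraction and set, and sets and genotypes in HG and bulge with fraction as a term. The steps were tested on simulated data. The files hold no scan date or slide, so batches could not be tested. Precision is limited by how few arrays there are.

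The 6 members and the gene lists were chosen with earlier results of these data known, so list counts are descriptions. Named were all members, for each the 4 genes with the highest correlation, and from each list those with the largest changes. Some listed genes are not reported here. Groups came from the submitters' titles and descriptions. Alternatives were quantile normalization, other floors and filters, the mean of a gene's probe sets, every probe set as a feature, eBayes without a trend, no block, all 12 arrays in 1 fit, and leaving out each array.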

Additional observations from a re-analysis of the deposited data

Results flagged for a closer look

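The difference between genotypes ran in opposite directions in the 2 stem cell fractions for Tmeff1 on its main probe set. It was -0.17 and -2.74 (cKO minus Het, log2) in hair germ of set 1 and set 2, and 0.40 and 0.22 in bulge of set 1 and set 2. Both fractions kept 1 sign each, as for 10.6% of all genes; each value is 1 array against 1, and the difference between the fractions was not tested. The second Tmeff1 probe set did not show this: it gave 0.13 and -0.92 in hair germ and -0.58 and -1.39 in bulge.

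For Skil the difference between sets had opposite signs in the 2 genotypes on its main probe set. Set 2 minus set 1 was -0.68 in Het hair germ and -0.51 in Het bulge, and 0.61 in cKO hair germ and 0.24 in cKO bulge. The interaction, tested with limma, was 1.03 with an adjusted p of 0.65. With the mean of both probe sets the signs turned, to 0.23 for Het sets, -0.13 for cKO sets and -0.36 for the interaction. No sample group held the 4 arrays that a search for outlying arrays needs.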

How the results depend on the processing

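Of the member values that were recomputed, 892 kept their direction and their side of the threshold, which most never passed. Another 50 changed direction, 18 came to pass the test and 27 ceased to pass. Of those 27, 18 were of Bambi and 7 of Tgif1 for bulge minus total keratinocytes, and 1 of each Skil call. The cause of the changes below was not tested, except that fewer arrays leave fewer degrees of freedom and that a group left with 1 array is assumed to vary as the others do. The number of arrays limits every comparison here, and 3 of the 11 probe sets were above the pooled median on 1 or 2 arrays only.

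Genes called between HG and bulge (2414) became 3641 with every probe set as a feature and 1596 without a trend, and 1199 to 2787 leaving out 1 array. Between HG and total keratinocytes (1379) they became 783 without a filter, 832 with the mean of probe sets, 808 without a trend and 693 with no replicate block, and 422 (without cKO HG of set 2) to 1948 leaving out 1 array. For Het sets (88) they became 18 with the floor at the median, 6 without a filter, 20 with the mean, 0 without a trend and 419 with all 12 arrays, and 0 to 2553 leaving out 1 array. For cKO sets (0) they were 7 with all 12 arrays and 0 to 91 leaving out 1 array. For the interaction (0) they were 3 with every probe set, 1 with all 12 arrays and 0 to 988 leaving out 1 array. For genotype in set 1 (0) they were 3 with every probe set, 1 with all 12 arrays and 0 to 2 leaving out 1 array. For genotype in set 2 (33) they became 7 with the floor at the median, 0 without a filter, 0 with the mean, 52 with every probe set, 0 without a trend and 9 with all 12 arrays, and 0 to 2435 leaving out 1 array. The upper end of these ranges for both sets, the interaction and genotype in set 2 came without the Het bulge array of set 2.

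Members called between HG and bulge (1) were 2 under quantile normalization, under the filter at the 75th percentile and with all 12 arrays, 0 with the mean of probe sets, and 1 to 3 leaving out 1 array. Between HG and total keratinocytes (1) they were 0 with the mean. Between bulge and total keratinocytes (2) they were 1 under quantile normalization, no floor, the floor at the median, no filter, the 75th percentile filter, the mean, every probe set and no trend, 0 with no replicate block, and 0 to 2 leaving out 1 array. Leaving out 1 array gave 0 to 3 for Het sets, 0 to 1 for cKO sets, 0 to 3 for the interaction and 0 to 3 for genotype in set 2. Without the Het bulge array of set 2 the 3 called for the interaction were Tmeff1 at -2.59, Bambi at -1.56 and Skil at 1.11.

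Some values, none of them called in the report's fits, changed sign. With the mean of probe sets Skil was -0.043 for genotype, 0.23 for Het sets, -0.13 for cKO sets, -0.36 for the interaction and 0.57 for genotype in set 1, Ski 0.005 for Het sets, and Pmepa1 -0.027 and Tmeff1 -0.056 for genotype in set 1. Under quantile normalization Tmeff1 was -0.046 for bulge minus total keratinocytes and -0.03 for genotype in set 1, and Pmepa1 0.076 for cKO sets. With all 12 arrays Pmepa1 was 0.11 for cKO sets, Bambi -0.53 for the interaction and Tgif1 0.063 for genotype in set 2. The second Ski probe set gave -0.0049 for bulge minus total keratinocytes. Leaving out 1 array, signs changed within these ranges. For HG minus bulge Tmeff1 was -0.34 to 0.65, for HG minus total keratinocytes -0.10 to 0.72 and for bulge minus total keratinocytes -0.12 to 0.54. For Het sets Bambi was -0.49 to 2.66, Pmepa1 -0.32 to 1.35, Tmeff1 -0.28 to 2.15, Ski -0.26 to 0.038 and Tgif1 -0.016 to 0.47. For cKO sets Pmepa1 was -0.21 to 0.14 and Tmeff1 -1.20 to 0.32. For the interaction Bambi was -1.56 to 1.59 and Pmepa1 -1.39 to 0.29. For genotype in set 1 Pmepa1 was -0.31 to 0.82, Ski -0.11 to 0.19 and Tmeff1 -0.31 to 0.53. For genotype in set 2 Bambi was -2.46 to 0.68, Pmepa1 -1.13 to 0.54 and Tgif1 -0.078 to 0.056. For genotype over all fractions Pmepa1 was -0.25 to 0.083, Skil -0.079 to 0.18 and Tgif1 -0.12 to 0.085.

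Arrays of the same genotype and set deviated together only in part, with correlations of -0.16 to 0.58 over 12 pairs of arrays, so that the pairing by condition rests on the labels. With no replicate block HG minus total keratinocytes fell to 693 genes and both bulge calls, Tgif1 and Bambi, no longer passed the test.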
